A study of Mus musculus with 4 samples.

Results

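Transcripts of the 2 kinds of lung capillary cell were measured through 10 genes, 5 that mark aerocytes (Car4, Ednrb, Emp2, Tbx2 and Apln) and 5 that mark general capillary cells (Gpihbp1, Plvap, Kit, Sema3c and Cd93). All 10 were taken by name from the 32285 genes of each count table, and all 10 passed the filter on low counts in every comparison. Cryosections of upper pulmonary branches from 4 C57BL/6J mice, 1 male and 1 female in each group, had been placed on Visium slides, where mRNA from the overlying tissue is bound by barcoded spots and every molecule is tagged with a unique molecular identifier (UMI). Vaped (V) mice had inhaled vapor of a flavored retail vape juice in whole body chambers for 4 h/day on 5 days per week over 9 wk from about 8 wk of age, and non-vaped (NV) mice were the controls. Each mouse gave 1 section, so a difference between sections and a difference between mice cannot be told apart, and the fraction of alveolar tissue on the slide differed between mice.

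The capillary net of the alveolus is built from a pair of endothelial cell types that lie side by side. Aerocytes are large, thin cells spread along the gas exchange surface against alveolar type 1 cells, and they respond to endothelin and secrete the peptide apelin. General capillary cells carry the apelin receptor, handle lipoproteins in the lumen, and can divide to give rise to both types after injury. A Visium spot covers many cells, so the 10 genes report the summed RNA of the capillary bed under a spot and not single cells, and fewer capillary cells and less RNA per cell cannot be told apart.

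Among the aerocyte genes, Car4 encodes a membrane-anchored carbonic anhydrase that interconverts CO2 and bicarbonate (GRCm38 chromosome 11, 84957786 to 84966044). Ednrb encodes the endothelin receptor type B (chromosome 14, 103814625 to 103844402), Emp2 a tetraspan membrane protein that alveolar type 1 cells make as well (chromosome 16, 10281749 to 10313968), Tbx2 a T-box transcription factor (chromosome 11, 85832551 to 85841948) and Apln the apelin ligand (chromosome X, 48025146 to 48034853). Among the general capillary genes, Gpihbp1 encodes the protein that carries lipoprotein lipase to the capillary lumen (chromosome 15, 75596628 to 75599481) and Plvap the protein of the diaphragms that span caveolae and fenestrae (chromosome 8, 71497765 to 71511752). Kit encodes the receptor of stem cell factor, which mast cells also carry (chromosome 5, 75574916 to 75656722), Sema3c a secreted semaphorin (chromosome 5, 17574281 to 17730268) and Cd93 a transmembrane receptor of endothelial cells (chromosome 2, 148436640 to 148443563).

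RefSeq promoters (GRCm38.p6) were found for 6 of the 10 members, all of them higher in alveolar spots as described further on. Those of 3 aerocyte genes are shown because their windows lie wholly before the annotated start of the gene, whereas those of Ednrb, Kit and Sema3c reach into it. The 250 bases before the start are given 5′ to 3′ for Car4 (chr11:84957504-84957753, plus strand), Emp2 (chr16:10313969-10314218, minus strand) and Apln (chrX:48034854-48035103, minus strand), and capitals mark a match to an ETS motif, written CAGGAAG or CCGGAAG and searched on both strands.
Car4: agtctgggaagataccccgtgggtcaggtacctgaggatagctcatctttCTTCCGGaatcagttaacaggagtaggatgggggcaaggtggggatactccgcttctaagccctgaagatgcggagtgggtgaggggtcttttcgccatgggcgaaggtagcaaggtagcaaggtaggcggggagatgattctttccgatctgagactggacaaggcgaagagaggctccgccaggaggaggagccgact
Emp2: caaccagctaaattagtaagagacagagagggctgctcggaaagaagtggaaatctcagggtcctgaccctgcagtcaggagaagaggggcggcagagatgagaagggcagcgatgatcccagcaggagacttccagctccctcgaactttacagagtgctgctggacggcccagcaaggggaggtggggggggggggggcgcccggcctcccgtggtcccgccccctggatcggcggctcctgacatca
Apln: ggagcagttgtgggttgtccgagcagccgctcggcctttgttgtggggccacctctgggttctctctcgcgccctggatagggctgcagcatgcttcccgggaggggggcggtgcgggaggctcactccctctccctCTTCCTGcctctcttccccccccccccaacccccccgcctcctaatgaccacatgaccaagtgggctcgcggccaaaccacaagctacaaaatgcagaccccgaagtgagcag
Car4 held 1 match to CCGGAAG and Apln 1 match to CAGGAAG, both on the opposite strand, and neither motif was found in the windows of Emp2, Ednrb, Kit and Sema3c, which leaves 2 of 6 members with a match. Of 32851 mouse promoter windows of this length, 10.8% held CAGGAAG and 6.91% held CCGGAAG, so a match is a common feature. The T-box core GGTGTG, held by 16.3% of windows, was found in 0 of the windows of the 6 members.

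Sections held 473 to 2053 spots, 4933 in all, with 6957392 to 34308556 UMIs per section. Spots were split by the summed level of 4 epithelial genes of the alveolus (Sftpc, Sftpb, Hopx and Cldn18), none of them a member, into alveolar spots, at 50% or more of the level over all spots, and other spots. There were 681 alveolar and 161 other spots for the NV male, 347 and 126 for the NV female, 1564 and 1 for the V male, and 1616 and 437 for the V female. The other spots held heart muscle and brown fat transcripts, at summed levels of 5943 to 18635 counts per 1000000 UMIs of those spots (CPM) for 6 cardiac genes and 1381 to 3298 CPM for 7 brown fat genes. In alveolar spots the cardiac sum was 2925, 2099 and 1767 CPM in both NV sections (male first) and the V female but 18.2 for the V male, and the brown fat sum ranged from 65.4 (V male) to 853 (V female). The section of the V male was thus alveolar almost throughout, unlike the other three. Pan-endothelial markers (13 genes such as Pecam1 and Cdh5) were present in every section and summed to 3638 and 3828 CPM in alveolar spots of the NV male and NV female and to 4778 and 3818 in those of the V male and V female. Between 277 and 1167 spot barcodes were shared by any pair of sections, since every slide area carries the same set of positions.

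The first comparison asked whether vaping altered the level of the capillary genes over the whole section. No member passed the test, and for all 10 the values of the groups overlapped. Tbx2 was measured at 182 and 143 CPM in the NV male and NV female and at 315 and 161 in the V male and V female. Gpihbp1 was measured at 170.1 and 227 CPM in the NV mice and at 352 and 224 in the V mice, in the same order. In both genes the V male stood highest, and the V female lay between the NV mice. The log2 fold change of V against NV was 0.49 (standard error 0.34, adjusted p = 0.9997) for Tbx2 and 0.48 (standard error 0.29, adjusted p = 0.9997) for Gpihbp1 by edgeR's quasi-likelihood test with Benjamini-Hochberg adjustment. With 1 mouse left out these values ran from 0.06 to 0.81 and from 0.24 to 0.72. Of the 10 members 8 had a positive and 2 (Apln and Sema3c) a negative log2 fold change, with a median of 0.28 in the aerocyte set and 0.32 in the general capillary set, where the median of the 14570 genes tested was 0.03. A gene was called where its adjusted p was below 0.05 and its log2 fold change exceeded 0.25 in either direction. By this rule 0 genes were called (percent called 0), 248 genes had an unadjusted p under 0.05, and DESeq2's Wald test called 8. Without the V male edgeR called 21 genes and without the V female 811, with 0 members among them. Both V mice lay above both NV mice in 12.6% of the genes tested and below both in 14.4%, against 0 of 10 members in either direction.

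Because the V male section had 1 other spot and few heart or fat transcripts, the comparison was repeated in alveolar spots alone. Values below are CPM of the alveolar spots, and the plot of levels by section shows them beside those of other spots.

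**Figure D1:**
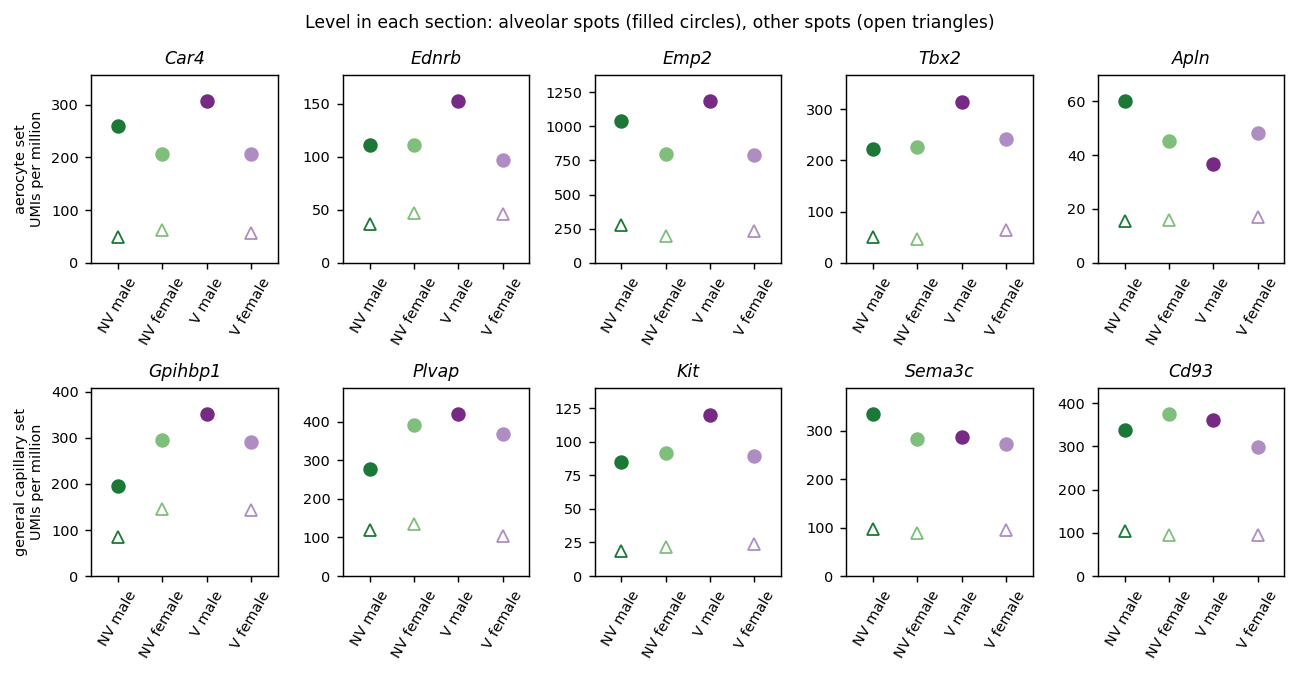
Level of each member (CPM, UMIs of the gene scaled to the same total, linear axis from 0) in the 4 sections, as filled circles for alveolar and open triangles for other spots, with the aerocyte set above and the general capillary set below. Every filled circle stands above the open triangle of its section, and only in the Tbx2 panel do both V circles stand above both NV circles.

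Car4 was measured at 260.3 and 206 in the NV male and NV female and at 306 and 207 in the V male and V female. Both males were higher than both females, and the groups overlapped. Emp2 was likewise higher in the males, at 1038 and 798 in the NV male and NV female and 1182 and 793 in the V male and V female. Ednrb, the endothelin receptor, was measured at 111.3 and 110.8 in the NV male and NV female and at 153 and 97.5 in the V male and V female. The V mice thus lay on both sides of the NV mice, which were nearly equal. Tbx2 was measured at 222 and 226 in the NV mice and at 315 and 242 in the V male and V female. It was the only member of the 10 in which both V mice exceeded both NV mice, an order found in 14.3% of the 14347 genes tested in alveolar spots. Apln, which had the fewest UMIs, was measured at 60.2 and 45.2 in the NV male and NV female and 36.6 and 48.3 in the V male and V female. The V male was lowest and the V female lay between the NV mice. These values rest on 170 (Apln, NV female) to 14784 UMIs (Emp2, V female).

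Gpihbp1, which docks lipoprotein lipase in the capillary, was measured at 196 and 296 in the NV male and NV female and at 352 and 292 in the V male and V female. Plvap followed the same pattern, at 277 and 393 in the NV male and NV female and 419.6 and 368 in the V male and V female. In both genes the NV male was lowest and the V male highest, with the females side by side. Kit was measured at 84.8 and 91.9 in the NV male and NV female and 119.9 and 89.4 in the V male and V female, so that again the V male alone stood apart. Mast cells also carry Kit. Their transcripts were few in these spots, at 2.69 to 26.7 CPM for the sum of 5 genes, and were lowest in the V male. The part of mast cells in these Kit levels was not tested. Sema3c was measured at 334 and 283 in the NV male and NV female and 287 and 272 in the V male and V female. Cd93 was measured at 338 and 375 in the NV male and NV female and 362 and 299 in the V male and V female. For these last 2 genes the V female was lowest, and the groups overlapped. Both V mice lay below both NV mice in 17% of the genes tested and in 0 of 10 members.

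No member passed the test in alveolar spots either (percent called 0, 0 of 14347 genes tested by edgeR, with 379 genes below 0.05 before adjustment and 9 genes called by DESeq2's Wald test). The largest log2 fold changes of the members were 0.40 for Gpihbp1 (standard error 0.25, adjusted p = 0.9995), 0.32 for Tbx2 (standard error 0.19, adjusted p = 0.9995) and -0.30 for Apln (standard error 0.25, adjusted p = 0.9995). With 1 mouse left out they ran from 0.15 to 0.70, from 0.14 to 0.49 and from -0.55 to -0.05. The remaining 7 lay between -0.14 (Sema3c) and 0.25 (Kit and Plvap), with standard errors of 0.18 to 0.27. The median was 0.14 in the aerocyte set and 0.25 in the general capillary set, against 0.01 over all genes tested. Without the V male edgeR called 221 genes and without the V female 1363, again with 0 members. With 2 mice per group these standard errors do not separate a modest change from none. The direction differed between the sexes for most members, as Gpihbp1 was 0.85 higher on the log2 scale in the V than in the NV male and 0.02 lower in the V than in the NV female. The share of all genes with such a difference in direction was not computed.

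**Figure D2:**
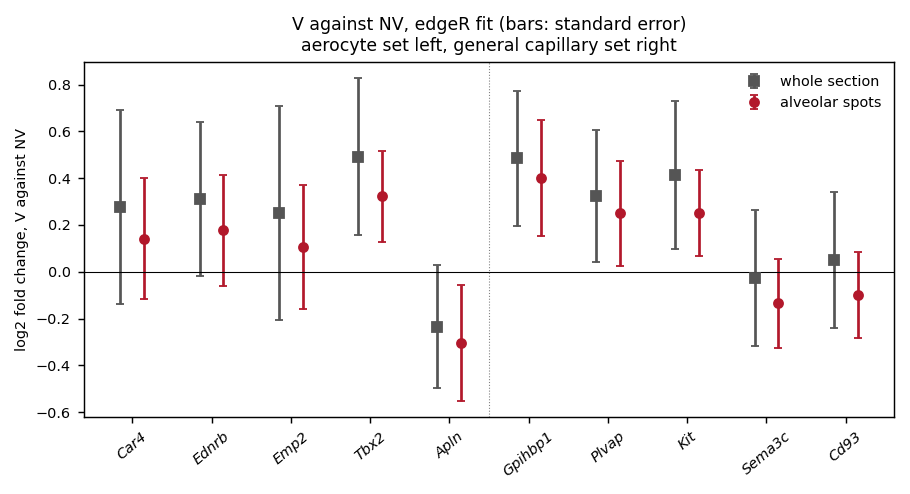
Log2 fold change of V against NV (vertical axis) with its standard error for each member, from the edgeR fit over whole sections (squares) and over alveolar spots (circles). The members lie between -0.30 and 0.49, Apln is the lowest in both fits, and the error bars are as wide as or wider than most of the changes.

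To set the capillary genes against the amount of endothelium under the spots, each member was also expressed per 1000 UMIs of the 13 pan-endothelial genes. Sema3c then fell into separate groups in alveolar spots, at 91.9 and 73.9 in the NV male and NV female and 60.1 and 71.2 in the V male and V female. Cd93 did so as well, at 92.9 and 97.9 in the NV and 75.8 and 78.4 in the V mice. Tbx2 kept the opposite order, at 61.0 and 59.0 in the NV and 65.9 and 63.3 in the V mice, and the other 7 members overlapped. Under this scaling both V mice lay below both NV mice in 34.2% of the genes tested, against 2 of 10 members, and above both in 4.11%, against 1 of 10. None of these passed the test under this scaling, where the log2 fold change was -0.34 for Sema3c (adjusted p = 0.901), -0.31 for Cd93 (adjusted p = 0.901) and 0.11 for Tbx2 (adjusted p = 0.926) by edgeR's quasi-likelihood test. For Apln, measured at 16.6 and 11.8 per 1000 pan-endothelial UMIs in the NV male and NV female and 7.66 and 12.7 in the V male and V female, the V male was lowest on this scale too. The marker sum of alveolar type 1 cells, the epithelial neighbours of aerocytes, was higher in both V mice, at 5372 and 4227 CPM in the V male and V female against 3392 and 3363 in the NV male and NV female, and its part in the levels of Emp2 and Tbx2 was not tested.

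The balance between the capillary types was expressed as the UMIs of the aerocyte set as a percentage of the UMIs of both sets. In alveolar spots it was 57.9% for the NV male, with an exact 95% binomial interval of 57.2 to 58.6, and 49.1% for the NV female (48.1 to 50.03). It was 56.4% for the V male (55.9 to 56.9) and 51.2% for the V female (50.8 to 51.7). The NV mean was 53.5% ± 6.25 (SD, n = 2) and the V mean 53.8% ± 3.65 (SD, n = 2), a difference of 0.32 percentage points that is far smaller than the spread within either group. Males were higher than females in both groups. Emp2 contributed 57.1% to 61.4% of the aerocyte UMIs, and without it the percentages were 34.7% and 29.0% in the NV male and NV female and 34.5% and 31.04% in the V male and V female, in which the males remained higher. In other spots the balance was lower in each of the 3 sections that had them, at 50.1% (NV male), 43.0% (NV female) and 47.6% (V female). Binomial intervals cover counting error only.

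**Figure D3:**
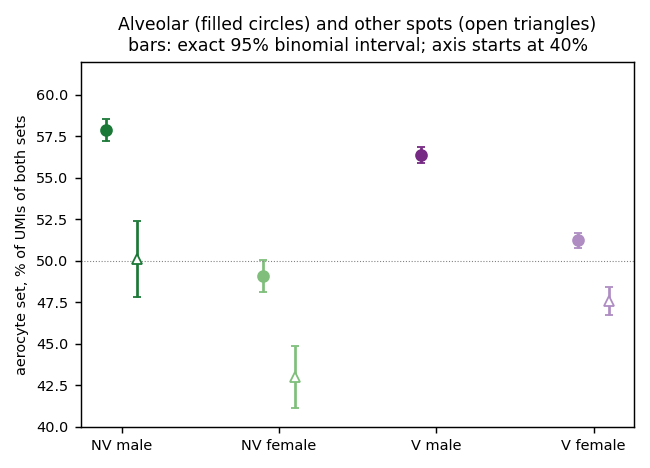
UMIs of the aerocyte set as a percentage of the UMIs of both sets in each section, for alveolar spots (filled circles) and other spots (open triangles), with exact 95% binomial intervals and a vertical axis from 40%. The males stand at 57.9% and 56.4% and the females at 49.1% and 51.2% in alveolar spots, and each open triangle lies below the circle of its section.

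A sex term was fitted to the alveolar sums after these levels had been seen, which therefore describes the pattern and does not test it independently. Males against females, adjusted for group, Emp2 had a log2 fold change of 0.48 (standard error 0.17) and Car4 of 0.45 (standard error 0.17), the largest of the 10 members in size, and neither was called. Each sex is 1 mouse in each group, and sex and section content cannot be told apart.

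Spot by spot, the members were found at shares that followed their sums. Spots were thinned to 3000 UMIs, which left 605 of 681, 308 of 347, 1363 of 1564 and 1397 of 1616 alveolar spots, in the order NV male, NV female, V male and V female. Emp2 was then detected in 93.1%, 89.0%, 96.4% and 90.8% of them, in the same order. Apln, at the other end, was detected in 15.7%, 13.6%, 9.32% and 13.4%. The interval of the V male (7.83 to 10.99) lay below that of the NV male (12.9 to 18.9) and overlapped that of the NV female (10.0 to 18.0). These intervals cover counting error over the spots of 1 mouse each and do not compare V with NV mice. Car4 was detected in 54.0% of spots of the NV male and 59.0% of the V male but in 42.5% of the NV female and 45.7% of the V female. Gpihbp1 was detected in 40.8% of spots of the NV male, against 55.2%, 64.8% and 58.4% in the NV female, V male and V female. Without thinning, with a median depth per alveolar spot of 6259.5 UMIs in the V male and 9061 to 9870 in the other sections, shares were higher and are not compared.

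**Figure D4:**
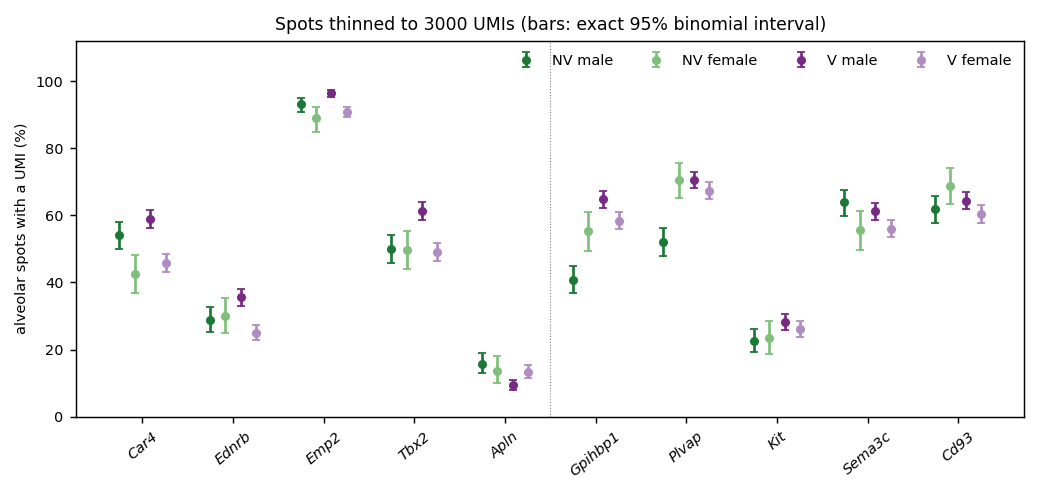
Percentage of alveolar spots with at least 1 UMI of each member after thinning to 3000 UMIs per spot, with exact 95% binomial intervals, for the 4 sections. Emp2 is found in 89.0% to 96.4% and Apln in 9.32% to 15.7% of spots, and for Gpihbp1 and Plvap the NV male lies below the other three sections.

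The capillary types were not separated by spots. At least 1 UMI of each set was found in 95.7%, 94.8%, 98.5% and 95.3% of the thinned alveolar spots, again in the order NV male, NV female, V male and V female, and 0% to 0.325% held neither. The variance of a member's UMIs over thinned alveolar spots was 0.91 to 1.31 times its mean, where counting alone gives about 1. For Emp2, which had the most UMIs, it was 1.11 to 1.18 times, and whether this exceeds counting error was not tested. Correlations between members over these 3673 spots, computed within sections and averaged, were at most 0.068 within the aerocyte set, 0.059 within the general capillary set and 0.040 between the sets. Counts are sparse, and correlations this weak are not a finding. The genes whose thinned counts were most like the aerocyte sum, among 2853 genes, were Hopx, Prdx6, Ager, Myh14 and Thbd (mean r of 0.093 to 0.110). Those most like the general capillary sum were Epas1, Tspan7, Ramp2, Adgre5 and Icam2 (mean r of 0.080 to 0.127). In the V male alone r was -0.0096 (Hopx) to 0.046 (Prdx6) and 0.023 (Icam2) to 0.051 (Epas1). Hopx is among the genes that define alveolar spots, and Emp2, the largest part of the aerocyte sum, is made by alveolar type 1 cells as well.

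The second comparison set alveolar against other spots of the same section, in the NV male, the NV female and the V female. Every member was higher in alveolar spots, by 2.02-fold to 5.25-fold in CPM over all members and sections. Car4 stood at 260.3 in alveolar and 49.6 CPM in other spots of the NV male, at 206 and 62.6 in those of the NV female and at 207 and 57.4 in those of the V female. Tbx2 was measured at 49.6, 45.7 and 64.6 CPM in other spots and Kit at 18.8, 21.6 and 23.95, in the order NV male, NV female and V female, each at least 3.73-fold below the alveolar level of its section. Gpihbp1 had the shallowest drop, to 85.8, 147 and 143 CPM, which was 2.02-fold to 2.28-fold. In all 10 members the alveolar levels of these sections lay above the levels of other spots without overlap. The share of all genes in this order was not computed. Scaled to total UMIs, as CPM is, the median gene was itself higher in alveolar spots, by 0.45 on the log2 scale.

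All 10 members were called higher in alveolar spots, where 18.4% of the 13922 genes tested were called higher and 23.1% lower. By edgeR's quasi-likelihood test with section as a block, the log2 fold change was 1.68 for Tbx2 (standard error 0.12, adjusted p = 1.067e-05), 1.60 for Kit (standard error 0.12, adjusted p = 1.22e-05), 1.54 for Car4 (standard error 0.13, adjusted p = 2.2e-05) and 1.47 for Emp2 (standard error 0.12, adjusted p = 1.7e-05). Cd93, Sema3c, Apln and Plvap followed at 1.35, 1.23, 1.19 and 1.11, then Ednrb at 0.85 and Gpihbp1 at 0.65 (standard error 0.10, adjusted p = 0.000947). The median was 1.47 in the aerocyte set and 1.23 in the general capillary set, against 0.02 over all genes tested. Scaling to total UMIs alone in place of TMM moved the median of all genes to 0.45, with 7050 genes called higher and 2002 lower in place of 2562 and 3215, and the members then lay between 1.07 and 2.11, all above that shift. With the limit for alveolar spots at 25% or 100% of the overall level, Gpihbp1 was no longer called (log2 fold change 0.42 and 0.36, adjusted p = 0.0609 and 0.0664 by edgeR), and at 100% Plvap was not (0.48, adjusted p = 0.0791). The spots of a section are 1 piece of tissue. With 3 sections per kind of spot and section as a block, the p-values measure how the difference between kinds of spot varies between sections.

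The pan-endothelial sum was also higher in alveolar spots, by 2.87-fold to 2.94-fold. Relative to it the members divided. Tbx2 (log2 fold change 0.57, adjusted p = 0.00123), Kit (0.49, adjusted p = 0.00375), Car4 (0.43, adjusted p = 0.0128) and Emp2 (0.37, adjusted p = 0.0128) remained higher in alveolar spots by the same edgeR test, a call made for 1.18% of all genes under this scaling. Gpihbp1 was lower, at -0.46 (adjusted p = 0.00237), as were 85.9% of all genes. Per 1000 pan-endothelial UMIs Gpihbp1 was measured at 53.8, 77.3 and 76.4 in alveolar spots and at 69.3, 110.5 and 107 in other spots, in the order NV male, NV female and V female, so that it was the lower in alveolar spots of each section. Ednrb (-0.25, adjusted p = 0.0884), Plvap (0.00, adjusted p = 0.997), Apln (0.08, adjusted p = 0.580), Sema3c (0.12, adjusted p = 0.301) and Cd93 (0.24, adjusted p = 0.0750) were not called. Thus 3 of 5 aerocyte genes and 1 of 5 general capillary genes exceeded the change of the pan-endothelial sum, and whether the sets differ was not tested. The 13 pan-endothelial genes themselves ran from -0.78 to 0.48 under this scaling, with 1 called higher and 2 called lower. Among them Cldn5 (0.48) lay above Car4 and Emp2, and Emcn (-0.78) and Robo4 (-0.61) lay below Gpihbp1. Under this scaling 5 of 6 marker genes of alveolar type 1 cells were called higher as well (median 0.46). So were 5 of 6 marker genes of alveolar type 2 cells (median 0.80). The spots were chosen by epithelial genes, and the part of type 1 cells, which also make Emp2, in these calls was not tested. Heart and brown fat, whose capillaries also make Gpihbp1, gave the other spots their cardiac and brown fat sums. Their part in the lower Gpihbp1 of alveolar spots was not tested.

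**Figure D5:**
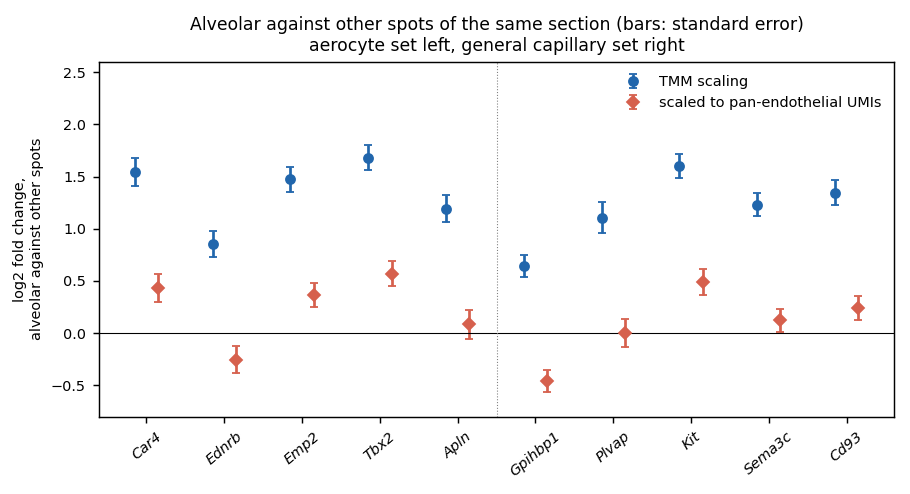
Log2 fold change of alveolar against other spots of the same section (vertical axis) with its standard error for each member, with TMM scaling (circles) and scaled to the 13 pan-endothelial genes (diamonds). All circles lie between 0.65 and 1.68, whereas the diamonds run from -0.46 for Gpihbp1 to 0.57 for Tbx2.

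The ligands, receptors and enzymes that pair with the members are given next. Of 17 listed, 15 were tested and 9 were higher and 2 lower in alveolar spots, with a median log2 fold change of 0.71, where 18.4% of all genes were higher and 23.1% lower. Scaled to pan-endothelial UMIs, 0 were higher and 9 lower, and the other 6 were not called, where 1.18% of all genes were higher and 85.9% lower. The median was then -0.40 against -1.09 over all genes. Edn1, an endothelin ligand of Ednrb, was higher (1.18, adjusted p = 0.000329), at 48.8, 37.2 and 36.6 CPM in alveolar and 14.7, 9.08 and 14.6 in other spots, in the order NV male, NV female and V female. Edn3, another endothelin ligand of Ednrb, was higher by 1.77 (adjusted p = 0.00177 by edgeR). Kitl, the ligand of Kit, was higher by 1.03 (adjusted p = 0.000164) and Aplnr, the apelin receptor, by 0.96 (adjusted p = 0.000332) on the log2 scale. Relative to pan-endothelial UMIs, Edn1, Edn3, Kitl and Aplnr stood at 0.07, 0.66, -0.08 and -0.16 and were not called. Lpl, the lipase that Gpihbp1 carries, went the other way, at -2.25 (adjusted p = 8.468e-06), with 285, 377 and 421 CPM in alveolar and 1046, 1473 and 1290 in other spots in the same order. Lmf1, which is needed to fold that lipase, was also lower (-0.76, adjusted p = 0.00258). Adjusted p-values are from the edgeR fit. Nrp1, Nrp2 and Plxnd1, receptors of semaphorins, and Mmrn2, a ligand of Cd93, were not called. Apela, the other apelin receptor ligand, had 0 UMIs in alveolar spots of all sections, and Edn2 had 1 UMI in the NV male and 1 in the V female.

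Between V and NV mice none of the 15 paired genes was called in alveolar spots. Both V mice lay above both NV mice in 2 of the 15 (Kitl and Flt1) and below both in 3 (Edn1, Ednra and Nrp2), where 14.3% and 17% of all genes did so. Edn1 was measured at 29.5 and 36.6 CPM in the V male and V female against 48.8 and 37.2 in the NV male and NV female, with a log2 fold change of -0.37 that was not called (adjusted p = 0.9995 by edgeR). Ednra, the other endothelin receptor, was measured at 51.0 and 47.6 in the V and 64.9 and 58.4 in the NV mice (-0.32, adjusted p = 0.9995 by edgeR). Edn3 had a log2 fold change of the opposite sign, 0.40 (adjusted p = 0.9995 by edgeR). Kitl was measured at 225 and 202 in the V and 178 and 173 in the NV mice (0.29, adjusted p = 0.9995 by edgeR).

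Further genes known from either capillary type were examined in the same way. Of 8 other aerocyte genes, 6 were higher and 1 (Chst1) was lower in alveolar spots, with a median of 1.11. Over all genes tested, 18.4% were called higher and 23.1% lower. Prx, which encodes periaxin, was higher by 1.77, and Tbx3, the paralog of Tbx2, by 1.27 on the log2 scale. Of 9 other general capillary genes, 7 were higher and 1 (Lpl) was lower, with a median of 1.195, and Glp1r, the receptor of glucagon-like peptide 1, was higher by 1.81. Scaled to pan-endothelial UMIs, 2 of the 8 aerocyte genes were higher and 2 lower, with a median of -0.0019. Of the 9 general capillary genes, 4 were higher and 2 lower, with a median of 0.09. Under this scaling 1.18% of all genes were called higher and 85.9% lower. The larger count of higher genes was here in the general capillary list. Between V and NV mice 0 of these 17 genes were called in alveolar spots, with medians of 0.16 for the aerocyte and 0.05 for the general capillary genes. Both V mice lay above both NV mice in 2 of 8 aerocyte and 0 of 9 general capillary genes and below both in 0 of 8 and 1 of 9, against 14.3% and 17% of all genes.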

How the data were processed

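The authors processed the reads with Space Ranger against the 10x mouse reference for mm10 and deposited, per section, a table of UMI counts for every gene in each spot under tissue, without normalization. The Seurat 4.0.3 steps of the submitters' processing notes are not part of these counts. Members and gene lists were chosen with earlier results of these data known. All deposited spots were used.

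UMIs were summed per mouse, over the whole section or per kind of spot where a section held at least 50 spots of it, which left the V male out of other spots. Groups came from the labels. edgeR's quasi-likelihood test (version 4.0.16, R 4.3.3) was run on these sums after filterByExpr and TMM scaling, with section as a block for alveolar against other spots. The standard error is the log2 fold change divided by the root of the F statistic. A call required an adjusted p (Benjamini-Hochberg) below 0.05 together with a log2 fold change beyond 0.25 in either direction. Tests were tried on simulated counts with larger changes than any member had between V and NV and a smaller spread than was fitted there. The trial therefore does not tell how small a change between V and NV would be found. Levels and percentages were scaled to total UMIs alone. The labels do not say more of the replicates than 1 section per mouse, so p-values of V against NV cover the spread between sections. Those of alveolar against other spots cover how the difference within a section varies between sections.

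Named genes were the 10 members, their paired ligands, receptors and enzymes, and, over spots, the 5 genes most like each set. Further paired and marker genes named were chosen after their values had been seen. Motifs were searched in the RefSeq promoter table of GRCm38.p6, and gene positions came from GENCODE vM21. Alternatives comprised DESeq2 1.42.0, other scalings and filters, thinned sections, other definitions of alveolar spots, each mouse left out and the replicate number as a block. Spot positions were not analysed here.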

Additional observations from a re-analysis of the deposited data

Results flagged for a closer look

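The log2 ratio of V over NV levels had opposite signs in the male and the female pair of mice for 7 members in alveolar spots and for 8 over the whole section. Each pair is 1 mouse against 1 mouse, so these differences were not tested, and the V male section differs from the other sections in its content. The share of all genes with opposite signs was not computed, so the counts are not read as a trait of the members. In alveolar spots the male ratio minus the female ratio was 0.64 for Ednrb (0.46 in males and -0.18 in females), 0.20 for Emp2 (0.19 and -0.01), -0.81 for Apln (-0.72 and 0.10), 0.87 for Gpihbp1 (0.85 and -0.02), 0.69 for Plvap (0.60 and -0.09), 0.54 for Kit (0.50 and -0.04) and 0.42 for Cd93 (0.10 and -0.32). For Gpihbp1, Plvap and Kit the ratio was 0.50 to 0.85 in males and -0.09 to -0.02 in females.

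Over the whole section the same difference was 0.55 for Car4 (0.53 in males and -0.01 in females), 0.84 for Ednrb (0.70 and -0.14), -0.54 for Apln (-0.45 and 0.10), 1.07 for Gpihbp1 (1.05 and -0.02), 0.95 for Plvap (0.80 and -0.15), 0.79 for Kit (0.79 and -0.0032), 0.064 for Sema3c (0.042 and -0.022) and 0.61 for Cd93 (0.35 and -0.25).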

How the results depend on the processing

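No member was called between V and NV under any of 13 alternatives over the whole section or 17 in alveolar spots (lowest adjusted p 0.0844 and 0.0979 among the members). Genes called over the whole section numbered 8 by DESeq2's Wald test and 0 to 811 with 1 mouse left out, and in alveolar spots 5 without a filter on low counts, 9 by the Wald test and 0 to 1363 with 1 mouse left out. Those counts were 21 and 221 without V replicate 1 (the male) and 811 and 1363 without V replicate 2 (the female), where a lone mouse is assumed to vary like the other group. The replicate number, which coincides with sex and is not stated to pair mice, gave 0 calls in both fits when used as a block (correlation of male minus female differences between groups, 0.078 over 14347 genes).

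Directions of the members turned in places. Scaled to pan-endothelial UMIs, V against NV was -0.062, -0.031, -0.083, -0.00082 and -0.27 for Car4, Ednrb, Emp2, Plvap and Cd93 over the whole section and -0.083, -0.050 and -0.12 for Car4, Ednrb and Emp2 in alveolar spots. Scaled to total UMIs alone, Sema3c was 0.015 over the whole section. With 1 mouse left out, whole section values ran from -0.27 to 0.66 for Car4, -0.17 to 0.66 for Ednrb, -0.29 to 0.65 for Emp2, -0.52 to 0.11 for Apln, -0.044 to 0.75 for Kit, -0.26 to 0.25 for Sema3c and -0.28 to 0.31 for Cd93. In alveolar spots they ran from -0.14 to 0.38 for Car4, -0.16 to 0.45 for Ednrb, -0.18 to 0.35 for Emp2, -0.27 to 0.018 for Sema3c and -0.22 to 0.018 for Cd93. The cause was not tested.

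Alveolar against other spots gave 9052 calls with total UMIs alone, 12117 scaled to pan-endothelial UMIs (with Ednrb at -0.25 and Gpihbp1 at -0.46) and 3766 with alveolar spots set at the overall level, against 5777, and 4346 to 5836 with 1 mouse left out. Gpihbp1 was not called with the limit at 25% of the overall level (0.42, adjusted p = 0.0609) or at the overall level (0.36, adjusted p = 0.0664), nor was Plvap at the latter (0.48, adjusted p = 0.0791), by edgeR. Apln in males against females turned to 0.044 with sex as the sole term.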
